A study of Mus musculus with 12 samples.

Results

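Integrins and leukocyte adhesion molecules are the cell surface proteins by which macrophages hold to matrix, to vessel walls and to other cells. The set described here holds 30 genes fixed by name, namely 15 integrin alpha chains, 7 integrin beta chains, 3 adhesion ligands of the immunoglobulin family (Icam1, Icam2 and Vcam1) and 5 other adhesion molecules (Selplg, Pecam1, F11r, Cd44 and Alcam). All 30 were found among the 46729 entries of the deposited expression table. The cells were macrophages grown for 10 days from C57BL6 bone marrow in the presence of L-929 conditioned medium, which supplies colony-stimulating factor 1, and interleukin-3. For 8 h they were left untreated or were given interferon gamma (IFNγ), the cytokine that activates macrophages, in a low (0.2 U/ml), middle (2 U/ml) or high (20 U/ml) dose. The volume is missing from the label of the high dose, for which the unit of the other doses was assumed. There were 3 libraries in each of the 4 groups, all groups were grown the same way, and the labels do not say whether the libraries came from separate animals or cultures.

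The table gives 1 FPKM value per group (fragments per kilobase of transcript, scaled to library size), so no value below has a replicate error and no difference was tested. Depth is unknown. A difference is given as log2((FPKM + 1) of one group / (FPKM + 1) of the other), which understates differences of low genes, and it counted as higher or lower when it was at least 1 in size, a 2-fold difference on this scale. Entries were used when their mean was at least 1 FPKM and no group was listed at 0. This left 11580 entries in all and 19 of the 30 adhesion genes.

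Each integrin is a pair of an alpha and a beta chain, and the pairing sets which ligand is bound. In leukocytes the beta 2 chain (Itgb2) pairs with the alpha L, alpha M and alpha X chains, and these integrins bind ICAMs or complement fragments. The beta 1 chain pairs with many alpha chains and serves mostly binding to matrix, and the alpha 4 chain, with beta 1 or beta 7, binds VCAM-1 and MAdCAM-1. ICAM-1 is known as a gene that inflammatory cytokines induce, in part through NF-κB.

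The labelled cell type was checked against marker genes. Of 10 macrophage markers, 8 were used and 0 were under 1 FPKM in every group. Csf1r, the receptor of the macrophage growth factor, was at 418 FPKM at the high dose and 349 in untreated cells, and Cd68 was at 1503 and 1814 FPKM in the same order. Fcgr1, higher by the size rule, was at 348 and 32.3 FPKM. Cd163, under the filter, was at 0.247 and 1.21 FPKM. Lyz2 was listed at 0 in 3 groups and at 7449 FPKM at the high dose, so a 0 in this table can be a failed estimate. Of 11 T and NK cell markers, 11 were under 1 FPKM in every group, as were 10 of 10 mast cell and basophil, 8 of 8 epithelial, 8 of 9 stromal, 6 of 8 megakaryocyte and platelet, 6 of 9 endothelial, 6 of 8 dendritic cell, 6 of 11 neutrophil and 5 of 8 B cell markers. Some listed markers were measured well above that level and differed with dose. The dendritic cell marker Clec9a, in an entry merged with Clec1b, was at 1.27 FPKM in untreated cells, 1.40 at the low dose, 7.16 at the middle dose and 47.1 at the high dose. Of the neutrophil markers, S100a8 was at 13.3, 18.0, 25.6 and 30.4 FPKM and Mmp8 at 15.9, 10.5, 5.79 and 3.69 FPKM in the same order. The B cell marker Ighm was at 8.98, 7.32, 12.1 and 11.4 FPKM and did not pass the size rule. The part of other cells in the adhesion values was not tested. In such bulk samples a smaller number of cells of a type and less RNA per cell cannot be told apart.

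At the high dose, 20 U/ml, 3 of the 19 adhesion genes used were higher than in untreated cells, namely Icam1, Itgal and Itgb7, and 0 were lower. Among all entries used, 6.51% (754) were higher and 2.94% (340) lower, and with upper-quartile scaling 629 were higher and 473 lower. The median log2 difference over the 19 genes was 0.20, and it was 0.01 over all entries. The genes were spread around 0, with 12 above it and 7 below. Within 0.5 of 0 were 7 of the 19, against 72.4% of all entries. Most of the abundant surface molecules were in the middle of that spread, and Itgb5 was at its lower end.

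**Figure D1:**
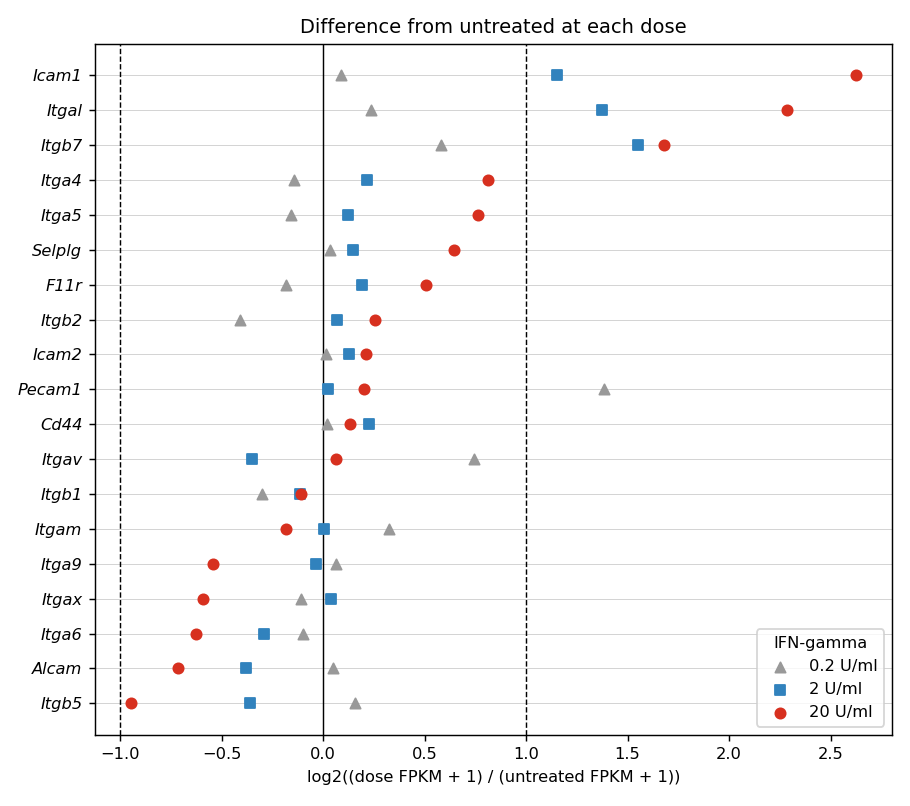
Log2 differences from untreated cells (x axis, with 1 FPKM added) for the 19 adhesion genes used, at 0.2 U/ml (triangles), 2 U/ml (squares) and 20 U/ml (circles), with dashed lines at the size rule of 1. At 20 U/ml Icam1 is at 2.63, Itgal at 2.29 and Itgb7 at 1.68, and the lowest gene, Itgb5, is at -0.94.

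Icam1 encodes the ICAM-1 protein, the main counter-receptor of the alpha L beta 2 integrin (LFA-1), and lies on chromosome 9 from 21015985 to 21028817 (plus strand, GRCm38). Its level was 17.6 FPKM in untreated cells, 18.8 at the low dose, 40.4 at the middle dose and 114 at the high dose. The value at the high dose was the highest and stood 6.47 times above that of untreated cells, while the value at the low dose lay close to untreated. Among the 19 genes Icam1 ranked 4 by level at the high dose and 13 in untreated cells. Most of its difference appeared at the upper doses: the log2 difference was 0.09 between the low dose and untreated cells, 1.06 between the middle and low doses and 1.47 between the high and middle doses. An antisense gene model, Gm47079, overlaps Icam1, and its reads cannot be told apart without knowledge of the strand.

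Sequence upstream of 3 adhesion genes is shown, since Icam1 and Itgb7 were 2 of the 3 genes past the size rule and Itgam is the classical myeloid integrin gene that stayed near its untreated level. The RefSeq table of promoters (GRCm38.p6) held 20 of the 30 genes, and the 250 bases before each annotated start were searched on both strands. In Icam1 the capitals mark the match to TTCNNNGAA, the pattern bound by STAT dimers, from position -42 to -34 before the start. In Itgam the capitals mark the matches to GAGGAA, the core bound by the myeloid factor PU.1, on either strand. Itgb7 has neither in this window and has no capitals.
Icam1, chr9:21015690-21015939, plus strand: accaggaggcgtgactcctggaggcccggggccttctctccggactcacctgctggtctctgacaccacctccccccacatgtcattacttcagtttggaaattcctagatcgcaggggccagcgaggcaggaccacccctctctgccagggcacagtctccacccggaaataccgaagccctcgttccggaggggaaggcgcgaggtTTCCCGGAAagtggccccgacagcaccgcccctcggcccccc
Itgb7, chr15:102231936-102232185, minus strand: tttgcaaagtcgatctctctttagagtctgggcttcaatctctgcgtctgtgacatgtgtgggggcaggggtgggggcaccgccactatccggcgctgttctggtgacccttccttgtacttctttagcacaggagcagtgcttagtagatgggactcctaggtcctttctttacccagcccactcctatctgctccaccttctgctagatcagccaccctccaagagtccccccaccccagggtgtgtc
Itgam, chr7:128062390-128062639, plus strand: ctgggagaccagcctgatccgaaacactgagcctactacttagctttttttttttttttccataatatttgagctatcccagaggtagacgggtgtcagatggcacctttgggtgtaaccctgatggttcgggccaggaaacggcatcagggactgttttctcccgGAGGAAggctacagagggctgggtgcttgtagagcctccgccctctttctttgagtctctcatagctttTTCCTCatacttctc

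Of the 20 adhesion genes with a promoter in the table, 1, Icam1, held TTCNNNGAA, against 7.02% of all 32851 promoters, so the count is near that share. No promoter was at hand for Itgal, Itgb2, Itga6, Itga7, Itgae, Itgb4, Icam2, Vcam1, Selplg and Pecam1. Its copy also fits the stricter TTCCNGGAA, found in 0.913% of all promoters. GAGGAA was present in 10 of the 20 and in 23.3% of all promoters. The interferon-stimulated response element core GAAANNGAA was present in Itgav, Itga2b and Itga3, of which Itga2b and Itga3 were under the filter, and in 7.13% of all promoters. No match to TATAAA was found in the 20, against 12.4% of all, or to a strict NF-κB consensus that starts with GGG, against 3.90%. The looser κB-type pattern GGAANNTCC, added after the Icam1 window was seen, was present in 1 of the 20, Icam1, from position -153 to -145, and in 3.59% of all. The GC box GGGCGG was in 9 of the 20 and 32.7% of all. The counts of the 20 are of genes, with 22 promoters among them, and the shares of all are of single promoters, so the measures differ slightly. These matches describe letters in a window and not sites of binding.

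Itgal encodes the alpha L chain (CD11a) of LFA-1, the receptor for ICAM-1 (chromosome 7, 127296260 to 127335138, plus strand). Its level was 9.30 FPKM in untreated cells, 11.1 at the low dose, 25.7 at the middle dose and 49.2 at the high dose. Each dose had a higher value than the one before, and the top value was 5.29 times that of untreated cells. Between the middle and low doses its log2 difference was 1.14, and between the high and middle doses it was 0.91. The receptor chain and its ligand thus shared the order of values over the 4 groups.

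Itgb7 encodes the beta 7 chain, which pairs with alpha 4 in the gut-homing integrin of lymphocytes and with alpha E (chromosome 15, 102215995 to 102231944, minus strand). Its level was 20.2 FPKM in untreated cells, 30.7 at the low dose, 61.0 at the middle dose and 66.8 at the high dose. The values at the middle and high doses were close to each other, with a log2 difference of 0.13, and at the middle dose Itgb7 had the largest difference from untreated of the 19 genes (1.55). Its alpha partners were lower in level: Itga4 was at 8.48, 7.59, 10.0 and 15.6 FPKM in untreated cells and at the low, middle and high dose, and Itgae stayed under 0.2 FPKM, with 0.0963, 0.0901, 0.114 and 0.0810. The ratio of Itga4 to Itgb7 FPKM was 0.234 at the high dose and 0.421 in untreated cells. FPKM is per length, so levels of genes can be set side by side, but protein was not measured.

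**Figure D2:**
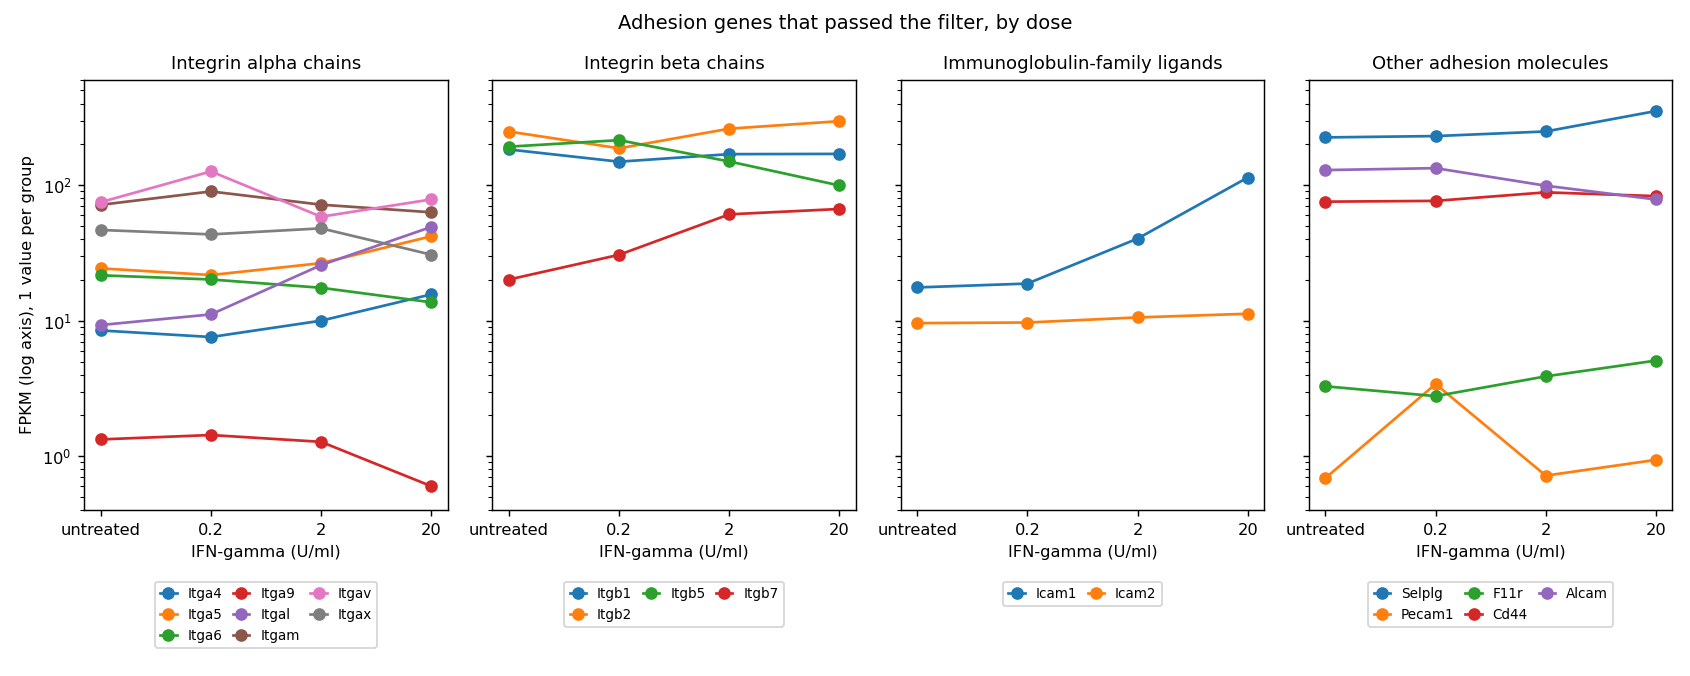
FPKM (log axis, 1 value per group) of the 19 adhesion genes used, over untreated cells and 0.2, 2 and 20 U/ml IFNγ, in panels by role. Icam1, Itgal and Itgb7 have higher values at each next dose, with 114, 49.2 and 66.8 FPKM at the high dose, while Itgb1 and Cd44 stay nearly level and Itgb5 and Alcam are lowest at 20 U/ml.

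The transcripts of the beta 2 integrin chains stood in different proportions in the groups, and the makeup of the proteins was not measured. Itgb2, the shared chain CD18, was at 249 FPKM in untreated cells, 187 at the low dose, 261 at the middle dose and 297 at the high dose. Itgam, the alpha M chain of complement receptor CR3 (CD11b), was at 71.7, 89.9, 71.8 and 63.1 FPKM in the same order, in an entry merged with the unnamed gene model RP23-144N15.3. Itgax, the alpha X chain (CD11c) often used to mark dendritic cells, was at 46.7, 43.4, 48.1 and 30.7 FPKM. Neither Itgam nor Itgax passed the size rule, with log2 differences of -0.18 and -0.59 at the high dose against untreated cells. The merged Clec9a entry had its highest value, and Itgax its lowest, at the high dose. Itgam and Itgax are neighbours on chromosome 7, where Itgax begins 11056 bases after the annotated end of Itgam.

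Of the summed FPKM of the 4 alpha chains that pair with Itgb2, Itgal made up 34.4% at the high dose and 7.28% in untreated cells. The share of Itgam was 44.1% at the high dose against 56.1% in untreated cells, and that of Itgax 21.5% against 36.6%. The fourth chain, Itgad, whose entry also holds Gm17831, stayed under 0.2 FPKM in every group. The sum itself was 143 FPKM at the high dose and 128 in untreated cells, and the share of Itgal was larger in a sum of similar size. The ratio of the sum to Itgb2 was 0.513 in untreated cells, 0.772 at the low dose, 0.558 at the middle dose and 0.482 at the high dose, so the low dose stood apart.

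**Figure D3:**
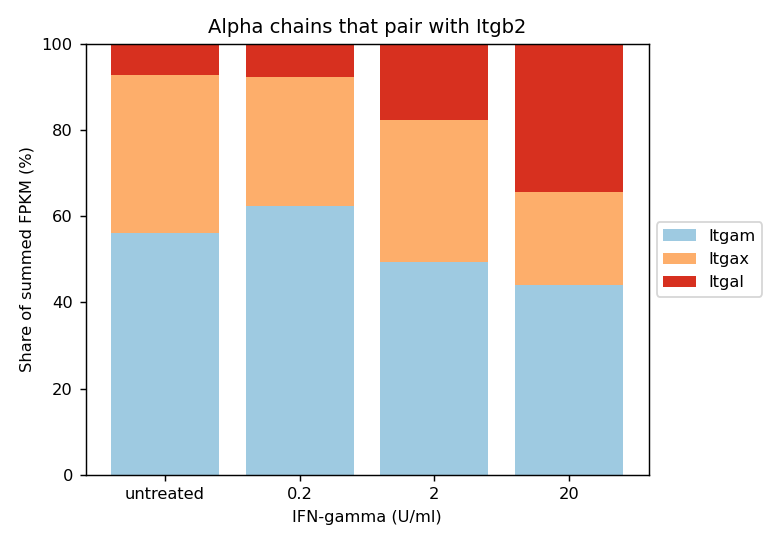
Share of the summed FPKM (y axis, %) of the alpha chains that pair with Itgb2, in untreated cells and at 0.2, 2 and 20 U/ml IFNγ (1 value per group). The Itgal share is 7.28%, 7.71%, 17.7% and 34.4% from left to right, and Itgad is too small to draw.

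Among the beta 1 integrins and their partners no gene passed the size rule at the high dose. Itgb1 was at 184 FPKM in untreated cells, 149 at the low dose, 169 at the middle dose and 170 at the high dose. Itga4, the alpha chain of the VCAM-1 receptor VLA-4, had a log2 difference of 0.81 at the high dose, and Itga5, of the fibronectin receptor, 0.76. Itga5 was at 24.4, 21.7, 26.6 and 42.0 FPKM from untreated to the high dose, so its value at the top dose stood apart from the other 3. Itga6, of the laminin receptor, had the opposite order, at 21.6, 20.2, 17.5 and 13.7 FPKM, and it was the only one of the 19 genes whose value was lower at each next dose, an order that 6.54% of all entries had. Higher at each next dose were 5 of the 19 genes (Icam1, Itgal, Itgb7, Selplg and Icam2), against 9.28% of all entries.

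Itga9, a chain that binds tenascin and VCAM-1, was low throughout, at 1.33, 1.44, 1.28 and 0.602 FPKM. Its log2 difference at the high dose was -0.54 with 1 FPKM added and -1.03 with 0.1 added, so whether it passes the size rule depends on that constant.

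The alpha v and beta 5 chains form a vitronectin receptor used in the uptake of dying cells. Their values had the same order over untreated cells and the low and middle doses, and parted in direction between the middle and high doses. Itgb5 was at 192 FPKM in untreated cells, 215 at the low dose, 150 at the middle dose and 99.5 at the high dose. The value at the high dose was the lowest, at 0.517 times the untreated level, and its log2 difference of -0.94 was just short of the size rule. It passed, at -1.09 with upper-quartile scaling and -1.13 with quantile normalization. Itgav was at 75.0, 126, 58.5 and 78.6 FPKM in the same order, with its highest value at the low dose and the values of untreated cells and the high dose close to each other. The ratio of Itgav to Itgb5 FPKM was 0.390 in untreated cells, 0.588 at the low dose, 0.391 at the middle dose and 0.789 at the high dose. Itgb3, the other well-known partner of alpha v, is not among the 30 genes and was at 5.84, 5.98, 2.24 and 0.867 FPKM.

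Of the ligands, Icam2, a ligand of LFA-1 with constitutive expression, was nearly level at 9.61, 9.71, 10.6 and 11.3 FPKM, in contrast to Icam1. Vcam1, the ligand of alpha 4 integrins, was at 0.0456 FPKM in untreated cells, 0.0351 at the low dose, 0.155 at the middle dose and 1.44 at the high dose. Its highest value came at the high dose and was 31.6 times that of untreated cells, from a level so low that the ratio is uncertain, and its mean of 0.419 FPKM was under the filter. With no filter its log2 difference at the high dose was 1.22.

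Selplg encodes PSGL-1, the ligand of P-selectin that lets leukocytes roll on vessel walls. It was the most abundant of the 19 genes at the high dose, with 225, 230, 249 and 353 FPKM from untreated cells to the top dose and a log2 difference of 0.64 at the high dose. Cd44, the hyaluronan receptor, had 75.6, 76.6, 88.6 and 83.1 FPKM, a range of 1.17 times. Alcam, the ligand of CD6, had 129, 134, 99.2 and 78.4 FPKM, with a log2 difference of -0.71 at the high dose. F11r, which encodes the junctional molecule JAM-A, had 3.28, 2.78, 3.89 and 5.08 FPKM. None of these 4 genes passed the size rule at any dose against untreated cells.

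At the middle dose, 2 U/ml, the same 3 genes as at the high dose, Itgb7 (1.55), Itgal (1.38) and Icam1 (1.15), were higher than in untreated cells, and 0 of the 19 were lower, against 2.50% and 0.760% of all entries. Their order at the middle dose was the reverse of that at the high dose, where Icam1 came first. The other 16 genes were all within 0.5 of 0 on the log2 scale, as were 87.9% of all entries. Alcam (-0.38) and Itgb5 (-0.36) were the lowest.

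At the low dose, 0.2 U/ml, 1 of the 19 genes, Pecam1, was higher than in untreated cells and 0 were lower, against 5.23% and 0.328% of all entries. Pecam1 encodes CD31, an adhesion molecule of endothelial cells, platelets and leukocytes. It was at 0.691 FPKM in untreated cells, 3.41 at the low dose, 0.720 at the middle dose and 0.941 at the high dose. The value at the low dose stood apart from the other 3, and Pecam1 passed the filter through it alone, so that it had to differ. Of the 606 entries higher at this dose, 447 were under a log2 difference of 0.5 at both other doses, and Pecam1 was among them. Itgb7 had a log2 difference of 0.58 at this dose, while Itgal and Icam1 were at 0.24 and 0.09.

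The endothelial marker list was set beside Pecam1. The summed level of its 9 genes was 134 FPKM at the low dose and 122 in untreated cells, and nearly all of it was Vwf, at 129 and 118 FPKM. At the middle and high doses Vwf was at 57.2 and 39.0 FPKM. Both values were lower than in untreated cells by the size rule (-1.03 and -1.57). Cdh5, a defining gene of endothelium, was at 0.0193 FPKM at the low dose and 0.0463 in untreated cells, and Emcn was listed at 0 in all 4 groups. Kdr was at 1.64 FPKM at the low dose and 1.45 in untreated cells, the merged entry of Egfl7 at 2.44 and 2.33, and Tie1 at 0.448 and 0.366. Of the dendritic cell and B cell markers used, 0 were higher at the low dose. Under the filter, Siglech was at 0.177, 1.975, 0.258 and 0.101 FPKM from untreated cells to the high dose. Ms4a1 was at 0.242, 1.09, 0.299 and 0.231 FPKM. Of adhesion genes outside the 30, Tln1, which encodes talin and switches integrins on, was also high at the low dose alone, as was Rdx, the membrane linker radixin. Tln1 was at 203 FPKM there against 78.4 in untreated cells, and Rdx at 186 against 69.5 FPKM. In the lists described below they were 1 of 24 and 1 of 16 entries used that were higher at this dose. Of kinases and docking proteins 0 of 22 were higher, of ligands 0 of 7 and of further integrin chains 0 of 1, against 5.23% of all entries. The part of library composition at the low dose in these values was not tested. The FPKM of all entries summed to 1025967 at the low dose, 769698 in untreated cells, 783701 at the middle dose and 904993 at the high dose. The median FPKM of the entries used was 12.9 at the low dose and 12.3 in untreated cells.

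Between the doses, 2 of the 19 genes were higher at the middle than at the low dose, Itgal (1.14) and Icam1 (1.06), against 1.51% of all entries. Itgb7 was just short of the size rule at 0.97, and it passed with both scalings. Lower at the middle than at the low dose were Pecam1 (-1.36) and Itgav (-1.10), against 6.26% of all entries, and both rest on the high values at the low dose. At the high against the middle dose, 1 gene was higher, Icam1 (1.47), and 0 were lower, against 2.90% and 1.11% of all entries. Itgal (0.91), Itga5 (0.64) and Itga4 (0.60) came next, and Itgax (-0.63) and Itgb5 (-0.58) were at the other end.

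**Figure D4:**
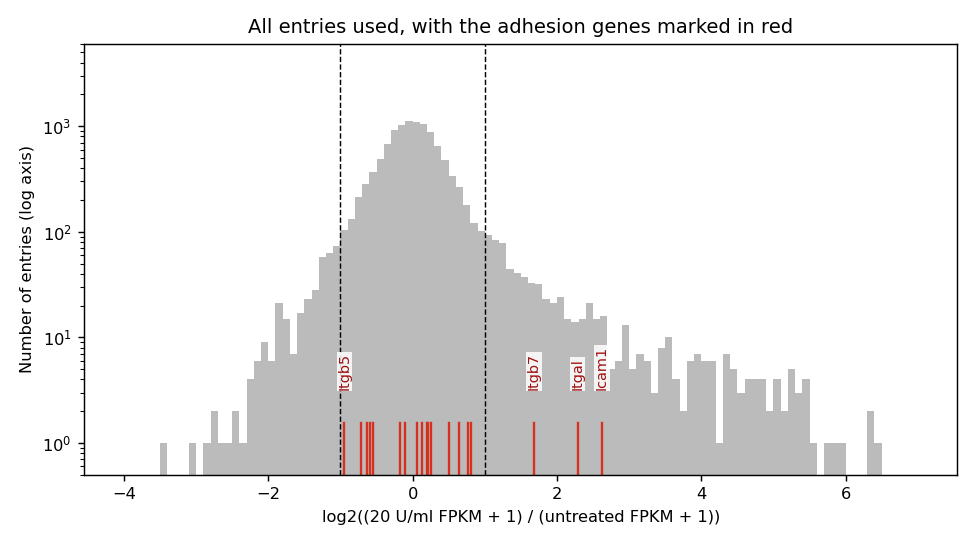
Number of entries (log axis) by log2 difference between 20 U/ml and untreated cells (x axis, bins of 0.1) for the 11580 entries used, with red ticks for the 19 adhesion genes and dashed lines at the size rule. Icam1, Itgal and Itgb7 lie among the 6.51% of entries to the right of the rule, and Itgb5 lies just inside the left line.

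The 11 genes under the filter were all integrin chains except Vcam1. Of them, 9 stayed under 1 FPKM in every group, namely Itga1, Itga2, Itga3, Itga7, Itga8, Itgae, Itgb4, Itgb6 and Itgb8, and the highest value among these was 0.951 FPKM of Itgb6 at the low dose. Itga8, a chain of stromal cells, was at 0.706, 0.818, 0.653 and 0.684 FPKM. Itga2, of the collagen receptor, was listed at 0 in untreated cells and at the low dose and reached 0.00719 FPKM at the high dose. Itga2b, the platelet chain CD41, was at 1.04, 1.22, 0.297 and 0.50 FPKM. Of the 8 platelet markers set beside it, 6 were under 1 FPKM in every group, and their summed level was 197 FPKM at the high dose and 477 in untreated cells. Most of that sum was Pf4, a platelet chemokine also made by macrophages, at 194 FPKM at the high dose and 472 in untreated cells. Treml1 was at 2.25 and 3.96 FPKM in the same order, Gp1ba at 0.204 and 0.326, and Ppbp was listed at 0 at the high dose and was at 0.491 FPKM in untreated cells. Gp9 was listed at 0 in 3 groups and at 0.0327 FPKM at the high dose. The part of other cells in the Itga2b values was not tested.

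Other genes of adhesion were taken from lists chosen by function. Of 24 entries used among the proteins that activate integrins or tie them to actin, 1 was higher at the high dose and 0 lower (median 0.05), against 6.51% and 2.94% of all entries, so the count is not far from the background. The higher one was Zyx, which encodes the focal adhesion protein zyxin, at 291 FPKM against 46.5 in untreated cells. The next in size were Sharpin (0.85), an inhibitor of integrin activation, Dab2 (-0.83), an endocytic adaptor, and Rap1b (0.66), a GTPase that activates integrins. Fermt3, which encodes kindlin-3, was at 145 FPKM against 118.

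Of 22 entries of kinases and docking proteins that signal from integrins, 2 were higher and 0 lower (median 0.34), a count also near those shares. Lyn, a kinase of the Src family, was at 129.7 FPKM at the high dose against 49.4 in untreated cells, and the adaptor Lcp2 (SLP-76) at 77.7 against 32.4. Ptk2b, the focal adhesion kinase PYK2 of leukocytes, was at 120 against 69.7 FPKM, under the size rule (0.77). These kinases also act behind Fc and other receptors.

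Among 7 entries used of matrix proteins and other ligands, 2 were higher and 1 lower (median -0.34), against 6.51% and 2.94% of all entries. C3, whose fragment iC3b binds alpha M and alpha X beta 2, was at 192 FPKM at the high dose against 8.35 in untreated cells, and Tgfbi at 143 against 62.1. Fn1, fibronectin, was at 0.677 against 3.68 FPKM (-1.48). Spp1, which encodes osteopontin, a ligand of CD44 and alpha v integrins, shares an entry with Gm42793 and was at 248 against 462 FPKM (-0.90). Mfge8, which bridges dying cells to alpha v integrins, was at 35.4 against 64.1 FPKM (-0.84), close in size to Itgb5.

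Of 16 entries of selectins, tetraspanins and other adhesion molecules, 1 was higher and 1 lower (median -0.25), against 6.51% and 2.94% of all entries. Cd47, the ligand of SIRP alpha that also binds integrins, was at 462 FPKM at the high dose against 180 in untreated cells. Cd2, which binds CD48, was at 0.613 against 2.93 FPKM. The tetraspanins Cd81 (-0.92) and Cd9 (-0.79) followed in size, with the membrane linker Ezr (-0.79). Of further integrin chains, Itgb3 was the 1 used, and it was lower (-1.87), as were 2.94% of all entries.

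**Figure D5:**
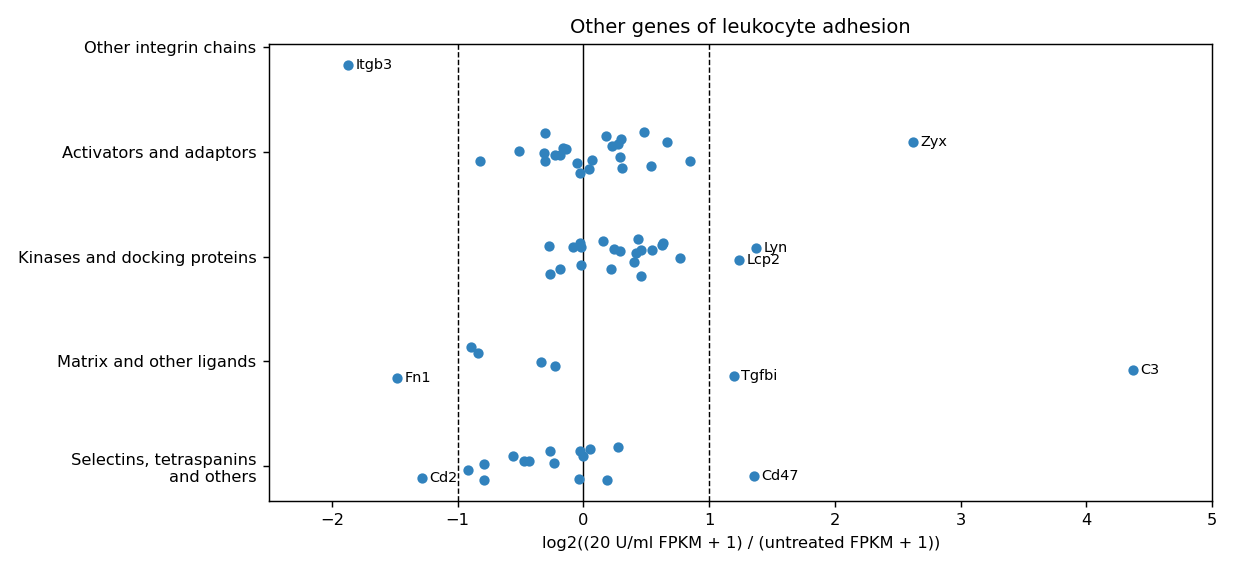
Log2 differences between 20 U/ml and untreated cells (x axis, 1 FPKM added) for the entries used of 5 further lists, 1 point per entry, with names past the size rule of 1 (dashed lines) and with points spread vertically for legibility. C3, Zyx, Lyn, Cd47, Lcp2 and Tgfbi lie to the right, and Itgb3, Fn1 and Cd2 to the left.

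Genes known to be induced by IFNγ and genes known to be induced through NF-κB were set beside Icam1. At the high dose the IFNγ-induced genes Irf1, Gbp2, Gbp5 and Socs1 had log2 differences between 3.87 and 5.51. The NF-κB targets Nfkbia (-0.03), Tnfaip3 (-0.001) and Relb (0.49) were under the size rule, as were Nfkb1 (0.43) and Nfkb2 (0.47). Icam1 at 2.63 lay between these sets of genes. At the low dose Irf1 was at 1.36, Gbp2 at 1.25, Gbp5 at 0.97 and Socs1 at 0.86. Nfkbia was at 0.58 there, the other NF-κB genes between -0.19 and -0.02, and Icam1 at 0.09. Which pathway lies behind the Icam1 values was not tested.

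A further table deposited by the authors compares, with Cuffdiff, a treated with an untreated condition without naming a dose, and it was not tied to any group above. In the authors' deposited table, a test was made for 20 of the 30 genes, and 13 had a q-value under 0.05, 3 of them higher and 10 lower, where 35.1% of all tested entries were higher and 33.8% lower. Cd44 had a log2 fold change of 2.32, Itga5 2.29 and Alcam 1.22 in the authors' deposited table. Itga4 (-4.50), Itga8 (-4.30) and Itgb7 (-2.41) were lowest there. Icam1 was at -0.22 with a q-value of 0.0538 and Itgal at -0.06 with a q-value of 0.607 in the authors' deposited table. These values do not follow those at any dose of IFNγ for Itgb7, Alcam or Cd44, and the treatment behind them is not stated in the labels.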

How the data were processed

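The submitters' processing notes name TopHat2 2.1.1, Cufflinks 2.1.1, Cuffdiff 2.1.1 and the build mm10. The authors deposited FPKM, 1 value per entry and group, and the labels do not say whether it combines the 3 libraries. The header of the untreated column has no unit, and FPKM was assumed from its range. A Cuffdiff table holds the authors' log2 fold change, p-value and q-value, per the file headers, and 2 further columns with levels of its conditions, left unused because they name no dose. The planned limma fits need values per library and were not possible, so differences of log2(FPKM + 1) with a rule of size were used. A mean of at least 1 FPKM kept 11852 entries, and 272 of them, at 0 in some group, were removed. Steps of whole reads were sought in 1661 entries with values between 0 and 0.1 FPKM, where the commonest ratio between the low dose and untreated cells occurred 26 times, so no depth could be derived. All 30 genes are accounted for. From each further list, entries past the size rule and others with large differences at the high dose are named. A few genes of these lists are not reported here and were left out of their counts. The genes and lists were chosen with earlier results of these data known. Positions are from GENCODE M21 (GRCm38) and promoters from RefSeq. Alternatives changed the pseudocount, the filter, the scaling, the use of merged entries and the size rule. Python 3.11.15 and pandas 2.3.3 were used.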

Additional observations from a re-analysis of the deposited data

How the results depend on the processing

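Icam1, Itgal and Itgb7 stayed past the size rule at 2 and 20 U/ml against untreated cells under every alternative run. At 20 U/ml the count of lower genes was 0, and it was 1 with a pseudocount of 0.1 or 0.01 (Itga9) and 1 with upper-quartile scaling or quantile normalization (Itgb5). Of all entries, 4.65% and 4.94% were lower with these pseudocounts, and 4.08% and 3.83% with these scalings. A 1.5-fold size rule gave 6 higher and 4 lower there, against 12.6% and 9.6% of all entries. It added Itga4, Itga5 and Selplg above and Itgb5, Alcam, Itga6 and Itgax below. At 0.2 U/ml the count of higher genes was 1, and it was 0 with a mean of at least 5 FPKM, which drops Pecam1, and 2 with the 1.5-fold rule. That rule called 11.6% of all entries higher at this dose. At 2 against 0.2 U/ml the count of lower genes was 2, and it was 1 with a mean of at least 5 FPKM and 1 with quantile normalization. The shares of all entries were 5.75% and 5.26% under these 2 alternatives. At 20 against 2 U/ml the count of higher genes was 1, and it was 2 with no filter (Vcam1) and 4 with the 1.5-fold rule, and the count of lower genes was 0, and it was 1 with a pseudocount of 0.01 and 1 with the 1.5-fold rule. Of all entries, 1.11% were higher with no filter and 7.69% with the 1.5-fold rule. Lower were 2.38% with a pseudocount of 0.01 and 4.94% with the 1.5-fold rule. Of 835 single-gene values under alternatives, 814 kept their side of the size rule in force, 20 newly passed it and 1 no longer did (Itgav, 2 against 0.2 U/ml), and no called value changed sign. Of the 20, only values of Itga9 (pseudocounts) and of Itgb5 and Itgb7 (scalings) newly passed the 2-fold rule. The others were unchanged values that passed the lower 1.5-fold rule. Upper-quartile scaling shifted the median of all entries by -0.13 at 20 U/ml and -0.10 at 0.2 U/ml, and quantile normalization by -0.09 and -0.12.

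No paired analysis was possible because the table holds 1 value per group, which also prevents leaving out libraries. The unknown depth limits genes near 0, such as Vcam1 and Itga9.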
